A study of Mus musculus with 8 samples.

Results

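The cells described here are single mouse bone marrow cells rich in transcripts of Elane, the gene of neutrophil elastase. They were sorted as LSK cells (Sca1+ cKit+), a gate in which blood stem cells and multipotent progenitors are found, from marrow first enriched for cKit on magnetic beads. Each well of a 384-well plate received 1 index-sorted cell and was read by CEL-seq2, a method that tags and counts the 3' ends of polyadenylated RNA. A well was kept with at least 1000 gene counts and 500 detected genes, and it was called Elane-rich with 5 or more Elane counts per 10000 gene counts of the well. The cells were thus chosen by their own Elane reading. The rule found 385 wells among 2727 kept wells on 8 plates, or 14.1%. The LC set of plates (LC187, LC188, LC189 and LC190, its replicates 1 to 4) held 372 of 1365 kept wells. The LCE set (LCE409, LCE407, LCE408 and LCE410, its replicates 1 to 4) held 13 of 1362. All cells belong to 1 untreated population of mice aged 8 to 16 weeks that carry the Dach1bio-GFP locus, in which a biotin tag and an IRES-GFP reporter were placed at the end of Dach1 in C57BL/6 embryonic stem cells. The protocol describes injection of a single targeted clone and removal of the neomycin cassette with Flpe, and it does not say whether the sorted mice carried 1 or both targeted alleles. The labels name no animal for any plate. Plates therefore serve as replicates, and whether the spread between them is technical or between animals cannot be told apart.

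Neutrophil elastase, proteinase 3 (Prtn3), cathepsin G (Ctsg) and myeloperoxidase (Mpo) are the main proteins of the azurophil granule, the storage vesicle that forms at the promyelocyte stage of neutrophil development. Their genes switch on in granulocyte-monocyte progenitors under transcription factors that include PU.1 (Spi1), C/EBPalpha (Cebpa) and Myb, and transcripts of the same genes can already be found at a lower level in multipotent cells, a state called myeloid priming. Cells on this path usually lose Sca1, CD135 (the receptor encoded by Flt3) and the genes of stem and lymphoid-primed progenitors, and they gain the Fc gamma receptors CD16 and CD32.

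Elane chose the cells, and Mpo and Prtn3 encode granule proteins whose transcripts are among those most like Elane in the results below. Of 5 stretches read, those of 250 bases before the annotated starts of Elane, Prtn3 and Mpo are shown. They are RefSeq sequences of the mouse build GRCm38.p6, all on the plus strand, at chr10:79886062-79886311 (Elane), chr10:79879417-79879666 (Prtn3) and chr11:87793534-87793783 (Mpo), and each lies directly upstream of its gene's first exon. Capitals mark matches to 3 motifs that were chosen after these sequences had been read: GAGGAAGT (a PU.1 motif), CAACGG (a Myb motif) and GCAAT or its reverse complement ATTGC (part of a C/EBP site).
Elane: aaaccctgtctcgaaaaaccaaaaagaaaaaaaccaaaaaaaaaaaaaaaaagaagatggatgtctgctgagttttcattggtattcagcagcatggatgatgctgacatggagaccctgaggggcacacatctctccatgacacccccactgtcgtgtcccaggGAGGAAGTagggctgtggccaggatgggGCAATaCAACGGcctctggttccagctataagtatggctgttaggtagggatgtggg
Prtn3: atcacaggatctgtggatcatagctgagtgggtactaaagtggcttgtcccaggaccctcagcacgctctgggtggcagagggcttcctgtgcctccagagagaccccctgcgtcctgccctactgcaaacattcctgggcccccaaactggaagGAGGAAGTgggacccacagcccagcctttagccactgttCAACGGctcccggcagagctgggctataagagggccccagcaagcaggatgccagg
Mpo: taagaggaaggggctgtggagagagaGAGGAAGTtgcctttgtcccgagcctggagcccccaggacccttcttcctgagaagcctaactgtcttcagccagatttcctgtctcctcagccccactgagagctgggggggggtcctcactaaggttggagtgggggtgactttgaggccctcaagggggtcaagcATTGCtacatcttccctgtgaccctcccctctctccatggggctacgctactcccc
GAGGAAGT was present in all 3 stretches, with its first base 85 bases before the start of Elane, 95 before Prtn3 and 224 before Mpo. CAACGG stood 51 bases before Elane and 56 before Prtn3. The C/EBP letters stood 57 bases before Elane and, as ATTGC, 56 before Mpo. Over all 32851 RefSeq promoter stretches of this length, searched on both strands, 2.44% held GAGGAAGT, 4.05% held CAACGG and 23.1% held GCAAT. All 3 motifs were found together, in any order, in 4 of the 32851 stretches (0.0122%). The motifs do not overlap each other in the 3 stretches, and a match describes letters only. Since the motifs were chosen after the sequences had been read, these shares do not test whether matches are more frequent here. The same stretches of Ctsg and Ms4a3 were also read: neither held a match to any of the 3 motifs on either strand, so GAGGAAGT was found in 3 of the 5 stretches searched. The 3 stretches shown are thus the ones with a match. Ctsg, also a granule gene, had a mean correlation with Elane over wells of 0.232, against 0.227 for Prtn3.

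The plates differed in how much Elane their wells held at large, and this bears on every value below. The median over all kept wells was 5.71, 2.22, 2.19 and 2.62 Elane counts per 10000 on LC187 to LC190, and 0 on each LCE plate. Elane was detected in 88.9% or more of the kept wells of each LC plate and in 28.4% or fewer of each LCE plate. Wells with at least 2 B lineage genes at 5 or more per 10000, a cell type that should lack Elane, held 6.00, 1.96, 2.93 and 3.68 Elane counts per 10000 as a group on LC187 to LC190 (10, 19, 18 and 3 wells, with median totals of 8060, 5675, 5225 and 6305 counts). On LC187 the threshold of 5 thus lies below the level of B lineage wells and below the plate's median. LC187 holds 205 of its 342 kept wells by the rule (59.9%, exact 95% binomial interval 54.5 to 65.2%), which is 53.2% of all Elane-rich wells. LC188, LC189 and LC190 hold 44 (12.9%), 55 (16.1%) and 68 (19.9%). LCE407, LCE408 and LCE410 hold 3, 5 and 5 wells, and LCE409 holds 0 of 341, which allows a share of up to 0.88%, so that plate enters none of the comparisons. A plate-wide presence was also measured for Igkc, the immunoglobulin kappa constant gene: on LC188, where 1 well held 1228 Igkc counts, 78.5% of the other kept wells held at least 1, against 7.12% on LCE408, where the highest well held 17. On the remaining plates this share was 22% (LC187), 20% (LC189), 90.3% (LC190), 87.6% (LCE409), 52.9% (LCE407) and 6.74% (LCE410). High and low shares of Igkc were thus found in both sets. The same 383 well barcodes were used on each plate, and the 118 wells with fewer than 100 counts held 1 Elane count in all. LC187 to LC190 had 9, 9, 8 and 8 of these wells, with too few counts to show the Elane level of the LC plates. Whether free or swapped RNA adds Elane to the LC wells was not tested.

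Because of this baseline, results are given both for the rule (5 or more, 7 plates) and for the 79 wells with 20 or more Elane counts per 10000. Of these, 76 lie on the LC plates (24, 11, 16 and 25 wells on LC187 to LC190), 2 on LCE408 and 1 on LCE410. Elane itself chose the cells and is described without a test: it ranged from 5.03 to 87.9 per 10000 over the 385 wells, with a median of 8.24 and with 245 wells between 5 and 10. Just inside the threshold, 85 wells held 5 to 6 per 10000, and just outside it 130 wells held 4 to 5. Of the 385 wells, 36 passed on fewer than 5 Elane counts. The wells with 20 or more were also deep, with median totals of 24365, 21556, 23443 and 24292 counts on LC187 to LC190, against 11550 to 13197 in the wells under 5. Over the rule's wells the medians were 11865, 17194, 13050 and 20358 counts. More RNA per cell and a deeper library per well cannot be told apart here.

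**Figure D1:**
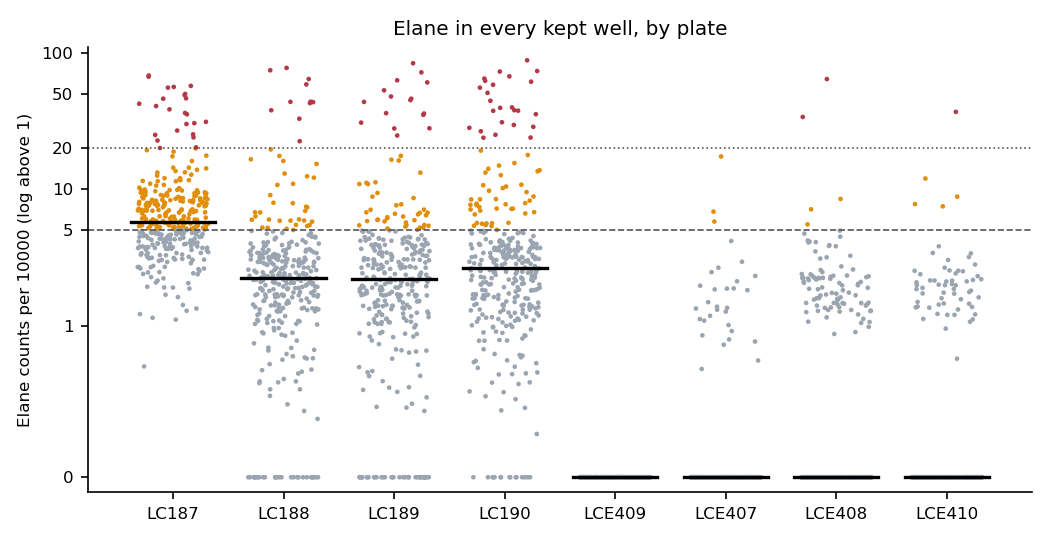
Elane counts per 10000 gene counts in every kept well (vertical axis, logarithmic above 1), by plate, with dashed and dotted lines at 5 and 20, orange and red points at or above them, and a black bar at each plate's median. The median of LC187 (5.71) lies above the dashed line, those of the other LC plates lie at 2.19 to 2.62, and those of the LCE plates lie at 0.

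The markers of granulocyte-monocyte progenitors that the rule did not use were higher in the Elane-rich wells. Values are CPM, a gene's counts per 1000000 summed counts of the wells of a group on one plate, and log2 differences are Elane-rich minus all other kept wells of the same plates. They were tested with edgeR over all genes, with Benjamini-Hochberg adjusted p-values and the standard error (SE) after ±. edgeR estimates the spread with information shared over genes. Its very small p-values therefore do not measure how closely the few plates agree for a single gene. Lowest, median and highest Mpo over 7 plates were 1566, 2747 and 3217 CPM in Elane-rich wells and 161, 720 and 1035 CPM in the others (log2 difference 2.28 ± 0.10, edgeR adjusted p = 3.6e-102). For Ms4a3, a membrane protein gene of granulocyte-monocyte progenitors, they were 175, 298 and 357 against 1.92, 37.5 and 59.2 CPM (3.01 ± 0.14, edgeR adjusted p = 1.16e-105). For Prtn3 they were 1392, 2200 and 2967 against 209, 652 and 952 CPM (2.03 ± 0.10, edgeR adjusted p = 1.37e-81). All 3 were higher on 7 of 7 plates, and their ranges did not overlap between the groups. Cebpe, which encodes C/EBPepsilon, the factor of later granulocyte stages, had 105 counts in Elane-rich wells and 24 in all others, was higher on 6 of 7 plates, and was too low to be tested across both sets. These 4 genes were proposed as markers with earlier results of these data known, so their direction is no independent evidence. Over the whole transcriptome the test called 878 of 11679 genes (7.52%), 431 higher (3.69%) and 447 lower (3.83%). The number was 403 without the plate as a block, 557 by DESeq2, and 52 when each well was thinned to 3000 counts.

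In the 76 LC wells with 20 or more Elane, compared with all LC wells under 20, the same markers were again higher on every plate. Mpo was 4156, 3861, 4283 and 4135 CPM on LC187 to LC190, against 1251, 937, 865 and 966 CPM (log2 difference 2.08 ± 0.06, edgeR adjusted p = 1.99e-21). Ms4a3 was 526, 535, 533 and 540 against 74.5, 52.8, 56.9 and 70.2 CPM (3.10 ± 0.10, edgeR adjusted p = 3.16e-21). Cebpe was 28.8, 38.2, 68.9 and 34.5 against 1.91, 3.3, 4.49 and 2.82 CPM (3.77 ± 0.43, edgeR adjusted p = 1.04e-07). With so few counts in the other wells, Cebpe may pass the count filter only through the wells where it is high. Its call is then partly set by the filter. The 4 plates differ little among themselves in Mpo and Ms4a3 and the groups do not overlap for any of these genes. Of 12244 genes tested, 1829 passed (14.9%), 929 higher (7.59%) and 900 lower (7.35%). Over all 6 plates with such wells, 567 genes were higher (5.38%) and 906 lower (8.59%) of 10546 tested. Transcripts of the gate's own proteins were present but low: Kit, which encodes cKit, was 135, 145, 186 and 188 CPM in the wells of 20 or more against 217, 241, 254 and 243 CPM, and Ly6a, which encodes Sca1, was 37.8, 3.82, 15.9 and 5.18 against 62.1, 62.9, 53.6 and 68.9 CPM. Both were lower on 4 of 4 plates (log2 differences -0.50 ± 0.11 and -1.87 ± 0.34, edgeR adjusted p = 0.00163 and 0.000158).

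Serine protease, inhibitor and membrane genes of the azurophil granule rose, and those for lysozyme did not. Of 19 granule genes other than Elane, 10 were higher and 0 lower in Elane-rich wells, with a median log2 difference of 0.41 against -0.05 over all genes tested. In LC wells of 20 or more, 12 of 19 were higher and 2 lower (median 0.78). Over all genes tested, 3.69% were higher and 3.83% lower by the rule, and 7.59% and 7.35% at 20 or more. Ctsg, the third serine protease of the granule, was 1679, 2133, 2192 and 1829 CPM on LC187 to LC190 in the wells of 20 or more and 517, 343, 358 and 390 CPM in the others (2.32 ± 0.09, edgeR adjusted p = 5.05e-19). Prtn3 was 3845, 4863, 4174 and 4002 against 1078, 801, 774 and 829 CPM (2.31 ± 0.07, edgeR adjusted p = 2.23e-21). Neither gene's values overlapped between the groups. Prss57, which encodes a further serine protease of the granule, differed by 2.04 ± 0.19 (edgeR adjusted p = 1.59e-09, higher on 4 of 4 plates). Among genes of protease inhibitors, Slpi, a secreted elastase inhibitor, was higher by 2.79 ± 0.43, Cst7, a cystatin that holds back cysteine cathepsins, by 1.49 ± 0.16, and Serpinb1a, a cytosolic inhibitor, by 0.67 ± 0.10 (edgeR adjusted p = 1.46e-05, 3.7e-08 and 2.24e-05), while Serpinb6a differed by 0.26 ± 0.59 (edgeR adjusted p = 0.831). Srgn, which encodes the proteoglycan that packs granule proteins, was 859, 1036, 1140 and 1015 against 677, 816, 791 and 734 CPM (0.46 ± 0.06, edgeR adjusted p = 2.31e-06). Cd63, a granule membrane tetraspanin, differed by 1.45 ± 0.14, Nkg7 by 1.41 ± 0.12 and Rab44 by 1.21 ± 0.16, each higher on 4 of 4 plates (edgeR adjusted p = 1.91e-09, 1.06e-10 and 2.16e-06). Ctsc, which encodes the cathepsin that activates the granule proteases, had 52.2, 30.6, 61 and 25.9 against 33.4, 41, 47.2 and 50.5 CPM and was not called (edgeR adjusted p = 0.983). The 2 genes that fell were the lysozyme genes Lyz2 (-0.90 ± 0.22, edgeR adjusted p = 0.00492) and Lyz1 (-0.83 ± 0.25, edgeR adjusted p = 0.021). Their near-identical sequences may share counts, both calls were lost without LC190 (highest adjusted p of edgeR 0.131 and 0.163), and that of Lyz1 also without LC189.

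Of 28 genes of the granulocyte programme, 14 were expressed enough to be tested, and 14 of these were higher in Elane-rich wells (median log2 difference 2.10), against 3.69% of all genes tested. The others, among them Ltf, Camp, Ngp, Mmp8 and Ly6g, had too few counts to be tested, so this is no count over the whole list. A gene with few counts in the other wells can pass the count filter only through the wells where it is high. Such a gene could only be found higher, so the counts of this list are partly set by the filter. In LC wells of 20 or more, 16 of 17 were higher and 0 lower (median 2.62), against 7.59% higher over all genes tested. Fcgr3 of the receptor list, which encodes CD16, was 146, 168, 133 and 128 CPM against 12.9, 12.3, 15.7 and 11.9 CPM on LC187 to LC190 (3.47 ± 0.22, edgeR adjusted p = 1.33e-13). Igsf6, an immunoglobulin superfamily gene of myeloid cells, was 123, 115, 133 and 123 against 20.1, 13.2, 15.2 and 25.3 CPM (2.78 ± 0.22, edgeR adjusted p = 4.03e-11). Gstm1, a glutathione transferase gene, was 313, 352, 339 and 324 against 99.3, 71.6, 93.6 and 87.1 CPM (1.94 ± 0.11, edgeR adjusted p = 1.93e-14). For these 3 genes every plate's value in the wells of 20 or more lay above every value in the others. Clec5a, Trem3, Alas1 (the first enzyme of haem synthesis), Anxa3, Hdc (histidine decarboxylase) and Hp (haptoglobin) differed by 3.10, 2.80, 2.63, 2.49, 2.37 and 2.32 on the log2 scale, each higher on 4 of 4 plates. Some granule genes of later neutrophil stages had few counts: in the LC wells of 20 or more, Ltf (lactoferrin) had 1 count, Camp (cathelicidin) 3, Ngp 3 and Mmp8 (a collagenase) 0, against 63, 129, 200 and 7 in the other LC wells. On LC190, 1 well held 81 of the 125 Camp counts of the plate. Lcn2 (lipocalin), also a gene of later granules, had 51 counts in the wells of 20 or more and was higher (1.75 ± 0.46, edgeR adjusted p = 0.00776). S100a8 differed by 2.63 ± 0.43 (edgeR adjusted p = 4.51e-05), with 32.4, 84.1, 276 and 123 CPM in the wells of 20 or more against 7.64, 6.83, 7.73 and 95.7 CPM in the others, so that only on LC190 did the others hold a raised level. On LC190, 1 well held 260 of the 513 S100a8 counts of the plate, and on LC189, 1 well held 79 of 135. The S100a8 call of the rule was lost without LC189 (edgeR adjusted p = 0.543).

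Genes of the monocyte programme moved less uniformly. In Elane-rich wells 8 of 17 tested were higher and 1 lower (median 0.74), and in LC wells of 20 or more 5 of 17 were higher and 1 lower (median 0.21). Beside this, 3.69% of all genes were higher and 3.83% lower by the rule, and 7.59% and 7.35% at 20 or more. Ly6c2, a surface protein gene of monocytes and their progenitors, was 614, 853, 583 and 509 CPM in LC wells of 20 or more against 97.4, 140, 58.6 and 58 CPM (2.94 ± 0.10, edgeR adjusted p = 2.99e-20). Clec12a, an inhibitory lectin receptor of granulocytes and monocytes, was 209, 264, 209 and 150 against 31, 29.2, 34.7 and 28.2 CPM (2.76 ± 0.16, edgeR adjusted p = 2.38e-14). F13a1, the coagulation factor XIII gene expressed in monocytes, was 126, 187, 58.3 and 43.1 against 53, 29.5, 25.9 and 27.7 CPM (1.5 ± 0.24, edgeR adjusted p = 3.76e-05). These 3 genes were higher on 4 of 4 plates. Ly6c2 and its neighbour Ly6c1 are near-identical, and counts may be split between them.

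**Figure D2:**
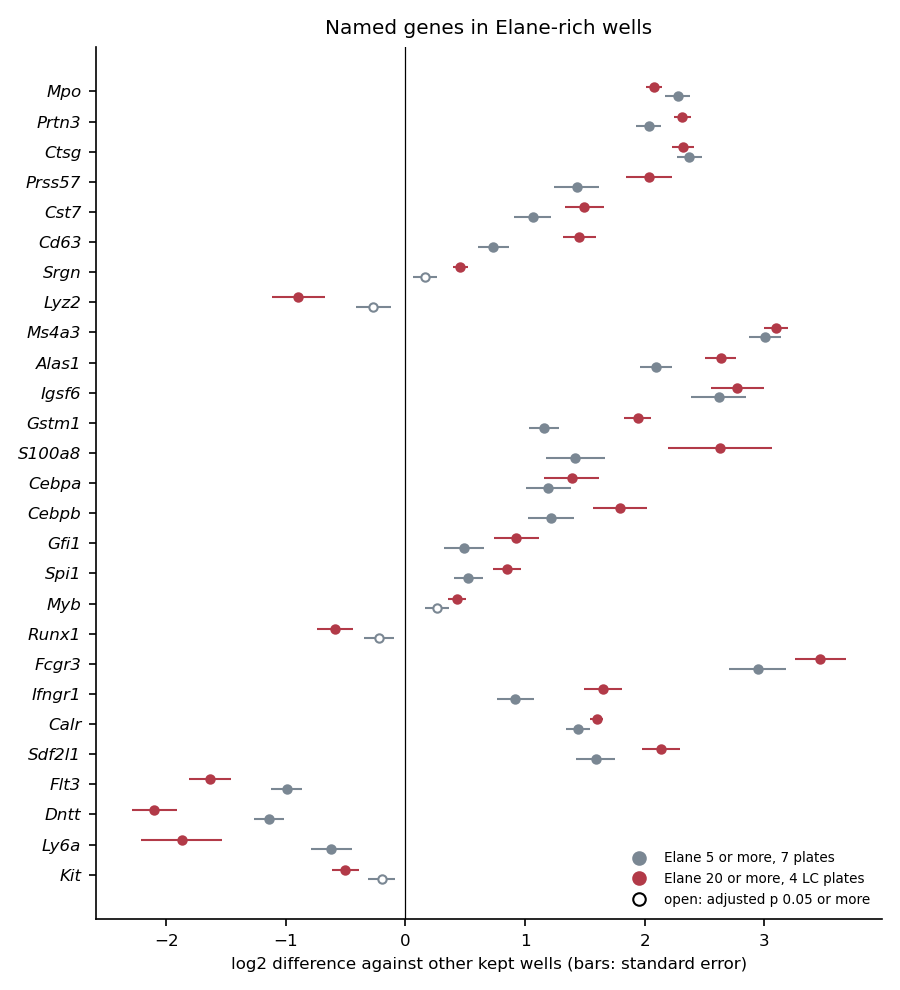
Log2 differences (horizontal axis, Elane-rich minus other kept wells, with SE) of named genes for the rule on 7 plates (grey) and for wells of 20 or more Elane on the 4 LC plates (red), with open points where the edgeR adjusted p is 0.05 or more. Most of the granule and granulocyte genes shown lie right of 0, as Ms4a3 does (3.01 and 3.10), while Lyz2 at 20 or more lies left of it. The stem and lymphoid genes shown lie left of 0, as Flt3 does (-0.99 and -1.64).

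Some transcription factors of the granulocyte-monocyte path were higher, among them those for C/EBPalpha, C/EBPbeta and PU.1. The test called 6 of 18 higher in Elane-rich wells and 0 lower, and in LC wells of 20 or more 8 of 20 were higher and 3 lower. Shares over all genes were 3.69% higher and 3.83% lower by the rule, and 7.59% and 7.35% at 20 or more. Cebpa, which encodes the factor needed to form granulocyte-monocyte progenitors, was 139, 49.7, 53 and 98.4 CPM against 34.9, 29.9, 30.2 and 36.2 CPM on LC187 to LC190 (1.39 ± 0.23, edgeR adjusted p = 4.6e-05). Cebpb was 75.7, 149, 122 and 74.2 against 31.3, 35.6, 21 and 32.1 CPM (1.79 ± 0.23, edgeR adjusted p = 5.75e-07). Spi1, which encodes PU.1, was 259, 184, 233 and 207 against 155, 115, 110 and 125 CPM (0.85 ± 0.12, edgeR adjusted p = 2.39e-06). Each was higher on 4 of 4 plates. Gfi1, a repressor that favours granulocytes, differed by 0.93 ± 0.19 and Myb by 0.43 ± 0.08 (edgeR adjusted p = 0.000775 and 0.000164). Irf8, which favours monocytes and dendritic cells, was 164, 206, 84.8 and 104 against 111, 99, 87.1 and 69.5 CPM, higher on 3 of 4 plates (0.60 ± 0.15, edgeR adjusted p = 0.00726), and the call was lost without LC188 (edgeR adjusted p = 0.0834). The 3 factors that fell were Runx1 (-0.59 ± 0.15), Etv6 (-0.62 ± 0.12) and Nfe2 (-0.73 ± 0.21), which act in stem cells and megakaryocytes (edgeR adjusted p = 0.00606, 0.000605 and 0.0175), and the Nfe2 call was lost without LC189. Under the rule these 3 differed by -0.22, -0.19 and -0.23 and were not called.

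Among receptors, genes for chains of the interferon gamma, GM-CSF and Fc gamma receptors were higher, and in the wells of 20 or more some others were lower. Of 22 receptor genes tested, 6 were higher and 0 lower in Elane-rich wells, and in LC wells of 20 or more 6 of 22 were higher and 4 lower. Among all genes tested, 3.69% were higher and 3.83% lower by the rule, and 7.59% and 7.35% at 20 or more. Ifngr1 was 162, 153, 127 and 186 CPM against 40.8, 57, 48.4 and 62.2 CPM (1.65 ± 0.16, edgeR adjusted p = 2.55e-09). Csf2ra, the alpha chain of the GM-CSF receptor, was 52.2, 103, 68.9 and 94.9 against 50.4, 34.9, 35.4 and 35.5 CPM (1.03 ± 0.23, edgeR adjusted p = 0.00199). Fcgr2b, an inhibitory Fc gamma receptor, differed by 1.61 ± 0.30 (edgeR adjusted p = 0.000265). All 3 were higher on 4 of 4 plates. Il1r1, an interleukin-1 receptor, had 6 counts in the wells of 20 or more and 380 in the others (-2.64 ± 0.54, edgeR adjusted p = 0.000775). Cd244a (-1.5 ± 0.37) and Il6st, the shared gp130 chain (-1.07 ± 0.37), also fell there, with edgeR adjusted p = 0.00495 and 0.0483. The Cd244a call was lost without LC187, and that of Il6st without LC187, LC189 or LC190. Csf3r, the receptor of the granulocyte growth factor G-CSF, was 84.7, 68.8, 63.6 and 81.1 against 72.1, 65.5, 68.1 and 73.9 CPM and was not called (0.14 ± 0.18, edgeR adjusted p = 0.692).

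Genes of the secretory pathway, which fold and export proteins such as granule enzymes, were higher almost throughout: 26 of 30 in Elane-rich wells and 27 of 30 in LC wells of 20 or more, with 0 and 0 lower (medians 0.74 and 1.07). Calr, which encodes the chaperone calreticulin, was 2949, 2852, 2886 and 3069 CPM in LC wells of 20 or more against 1171, 892, 938 and 991 CPM (1.6 ± 0.06, edgeR adjusted p = 5.39e-20). Sdf2l1, which encodes a partner of the chaperone BiP, was 173, 222, 196 and 183 against 58.2, 39.1, 42.2 and 39.6 CPM (2.14 ± 0.16, edgeR adjusted p = 7.64e-12). Neither gene overlapped between the groups. Pdia4 and Hyou1 differed by 1.59 ± 0.24 and 1.6 ± 0.22 (edgeR adjusted p = 1.25e-05 and 1.82e-06). Glycolysis genes were higher in 7 of 14 cases by the rule and in 9 of 14 at 20 or more, with 1 and 1 lower, and the lower one both times was the glucose transporter gene Slc2a3, whose call at 20 or more was lost without LC188, LC189 or LC190. Hk3, a hexokinase of myeloid cells, differed by 1.39 ± 0.15 and Eno1 (enolase) by 1.06 ± 0.10 (edgeR adjusted p = 2.8e-08 and 1.22e-09). Of S phase genes, 6 of 20 were higher at 20 or more and 0 lower, with Rrm2, the small subunit of ribonucleotide reductase, at 0.73 ± 0.12 (edgeR adjusted p = 5.49e-05). Without LC187 the S phase count was 3. Of G2 and mitosis genes, 2 of 22 were higher and 4 lower, and of haem synthesis genes 2 of 10 were higher and 1 lower, so neither list moved one way. Over all genes tested at 20 or more, 7.59% were higher and 7.35% lower, so counts this small are no result about these 2 lists.

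Lymphoid priming and stem cell genes were lower. 17 of 20 lymphoid priming genes tested fell in Elane-rich wells and 0 rose (median -0.64), and in LC wells of 20 or more 14 of 18 fell (median -1.32). Over all genes, 3.83% fell by the rule and 7.35% at 20 or more. Flt3, which encodes CD135, had a lowest, median and highest value of 0, 69.7 and 118 CPM over 7 plates in Elane-rich wells and 138, 160 and 259 CPM in the others, and it was lower on 7 of 7 plates (-0.99 ± 0.13, edgeR adjusted p = 1.5e-12). At 20 or more it was 50.4, 57.3, 34.5 and 38 CPM on LC187 to LC190 against 132, 153, 153 and 134 CPM (-1.64 ± 0.18, edgeR adjusted p = 2.79e-08). Dntt, which encodes terminal transferase, was 32.4, 68.8, 34.5 and 19 against 169, 179, 188 and 96.6 CPM (-2.10 ± 0.19, edgeR adjusted p = 6.52e-10). Neither gene overlapped between the groups at this threshold. Of stem cell genes, 13 of 22 fell by the rule and 16 of 22 at 20 or more, and none rose (medians -0.61 and -1.52). Angpt1, which encodes a ligand of the stem cell receptor Tie2, was 18, 11.5, 23.9 and 38 CPM against 108, 132, 146 and 139 CPM (-2.38 ± 0.22, edgeR adjusted p = 8e-10). Mecom, a regulator of stem cell maintenance, had 7 counts in all 76 wells and 655 in the others (-3.24 ± 0.45, edgeR adjusted p = 3.17e-06). Dach1 itself was 32.4, 49.7, 13.3 and 20.7 CPM against 43.2, 41.5, 32.4 and 48.9 CPM at 20 or more and was not called (-0.58 ± 0.29, edgeR adjusted p = 0.189). By the rule it was lower on 6 of 7 plates (-0.76 ± 0.22, edgeR adjusted p = 0.0115), a call that was lost without LC188, LC189 or LC190.

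Genes of the erythroid branch were lower as well, in 10 of 13 tested by the rule and 12 of 16 at 20 or more (medians -1.36 and -2.06), with 0 and 1 higher. Without LC190 the count at 20 or more was 7. Of all genes tested, 3.83% were lower by the rule and 7.35% at 20 or more. These shares stand beside each list count in this paragraph. Car1, an early erythroid carbonic anhydrase gene, had lowest, median and highest values of 0, 16.9 and 23.7 CPM in Elane-rich wells and 0.481, 49.5 and 116 CPM in the others, lower on 7 of 7 plates (-2.03 ± 0.20, edgeR adjusted p = 1.09e-20). The plate at 0.481 CPM, of the LCE set, adds little to this agreement. Its few Elane-rich wells were unlikely to come out otherwise than lower. Gata1, the erythroid and megakaryocyte regulator, had 4 counts in the 76 LC wells of 20 or more and 278 in the others (-2.68 ± 0.65, edgeR adjusted p = 0.00407). The mast cell and basophil genes did not move together. Mcpt8, a basophil protease gene, was higher by the rule (1.90 ± 0.30) and at 20 or more (1.61 ± 0.40, edgeR adjusted p = 2.39e-08 and 0.0049), and the second call was lost without LC187. Cpa3, which encodes mast cell carboxypeptidase, was higher by the rule (0.66 ± 0.16, edgeR adjusted p = 0.00105) and lower at 20 or more, with 30.6, 34.4, 13.3 and 39.7 against 71.9, 70.5, 96.1 and 40.7 CPM (-1.08 ± 0.28, edgeR adjusted p = 0.00714), a call that was lost without LC189. Interferon response genes fell in 7 of 13 cases at 20 or more, a count of 2 without LC187 or without LC190, and in 3 of 13 by the rule. Immediate early genes, which can rise with handling of cells, fell in 4 of 12 cases at 20 or more, with Jun at 48.6, 26.8, 13.3 and 43.1 against 139, 126, 110 and 104 CPM (-1.73 ± 0.21, edgeR adjusted p = 3.42e-07).

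Leaving out LC187, the plate with the high Elane level, gave 1032 called genes (9.21%), 467 higher (4.17%) and 565 lower genes (5.04%) of 11208 tested by the rule. In that fit, 10 of 19 azurophil granule genes, 13 of 13 granulocyte genes, 8 of 16 monocyte genes and 26 of 30 secretory genes were then higher. Of the lists that fell, 16 of 20 stem cell genes, 18 of 19 lymphoid priming genes and 9 of 12 erythroid genes were lower. At 20 or more on the other LC plates, 1321 genes passed (10.7%), of which 672 were higher (5.44%) and 649 lower (5.26%) of 12347 tested. Among them 12 of 19 azurophil granule, 16 of 18 granulocyte and 28 of 30 secretory genes were higher, and 13 of 22 stem cell and 13 of 18 lymphoid priming genes were lower. All lists were chosen with earlier results of these data known, so their direction is not independent evidence.

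Markers of other cells that the gate could hold were summed in the same wells. In LC wells of 20 or more, 8 B lineage markers came to 26.5 to 39.6 CPM, against 24.5 to 120 CPM in the others, and 5 macrophage markers to 10.8 to 39.7 against 23.6 to 62.5 CPM, with Adgre1 at 0 counts. All 4 T and NK cell markers counted (Cd3d, Trac, Trbc2, Ncr1) were at 0. The 7 mature neutrophil markers came to 54 to 329 against 16.5 to 350 CPM, and 2 of 3 tested, S100a8 and Lcn2, were higher. Lcn2 (lipocalin 2) had 51 counts in the wells of 20 or more and lost its call without LC189. By the rule the B lineage sum was 33.1 to 308 CPM in Elane-rich wells and 22.3 to 356 CPM in the others, with none of 7 tested markers called. Of 111 wells with at least 2 B lineage genes at 5 or more per 10000, 14 were Elane-rich, 6 of them on LC187.

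The wells between 5 and 20 Elane held part of the programme. With the wells of 20 or more left out, 77 of 11628 genes passed (0.662%), 57 of them higher (0.49%) and 20 lower (0.172%). Mpo differed by 1.6 ± 0.18, Ctsg by 1.66 ± 0.16, Prtn3 by 1.35 ± 0.18 and Ms4a3 by 2.02 ± 0.18 (edgeR adjusted p = 6e-15, 1.89e-21, 2.57e-11 and 5.85e-24). Of the lists, 8 of 17 monocyte genes, 7 of 13 granulocyte genes and 5 of 30 secretory genes were higher, and 1 of 22 stem cell genes and 3 of 20 lymphoid priming genes were lower. On the LC plates Mpo was higher from band to band: 1035, 780, 720 and 762 CPM on LC187 to LC190 in wells under 5, 1314, 1409, 1645 and 1483 between 5 and 10, and 2097, 3093, 2750 and 3010 between 10 and 20. Ms4a3 was 59.2, 37.5, 39.7 and 44.4 CPM under 5, 58.9, 113, 146 and 126 between 5 and 10, and 237, 243, 287 and 344 between 10 and 20. On LC187 the 153 wells between 5 and 10 thus held no more Ms4a3 than the wells under 5, while the other LC plates showed more in that band. Flt3 was 138, 159, 160 and 145 CPM under 5, 140, 132, 130 and 76.4 between 5 and 10 and 50.4, 57.3, 34.5 and 38 at 20 or more.

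**Figure D3:**
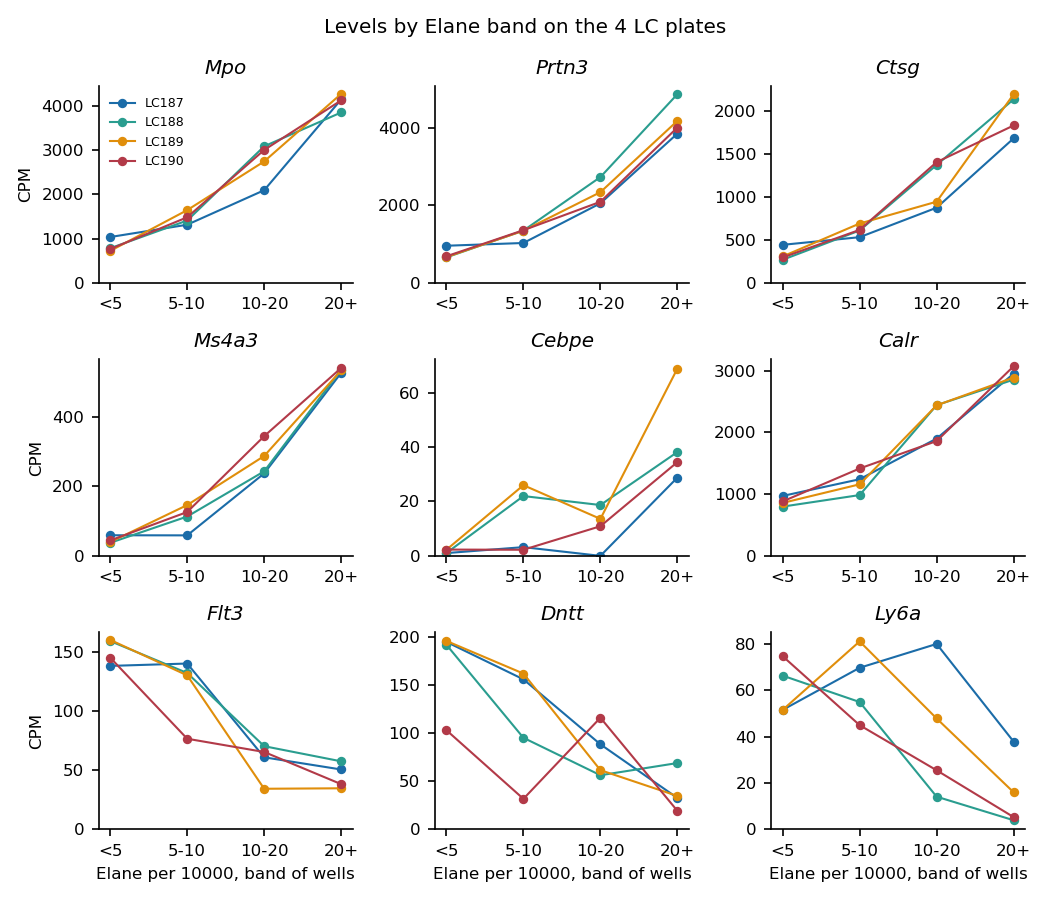
CPM of 9 genes (vertical axes) in wells of each LC plate with under 5, 5 to 10, 10 to 20, and 20 or more Elane counts per 10000 (horizontal axis), 1 line a plate. At 20 or more the plates lie close together for Mpo (3861 to 4283 CPM) and further apart for Ly6a (3.82 to 37.8 CPM) and Dntt (19 to 68.8 CPM). Ms4a3 between 5 and 10 is 58.9 CPM on LC187 and 113 to 146 CPM on the other plates.

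Compared directly on the 4 LC plates, wells of 20 or more and wells of 5 to 20 differed in 659 of 7328 genes (8.99%), 316 higher (4.31%) and 343 lower (4.68%) at 20 or more. Higher at 20 or more were Wfdc21 (3.71 ± 0.52), the sphingomyelin synthase gene Sgms2 (3.30 ± 0.42), S100a8 (3.03 ± 0.33), Fcgr3 (2.59 ± 0.26) and Cebpe (2.05 ± 0.43), each on 4 of 4 plates (edgeR adjusted p = 1.23e-07, 1.19e-08, 5.73e-11, 4.4e-12 and 0.00051). Wfdc21, Sgms2 and Cebpe were low in the LC wells under 20, so they may pass the count filter only through the wells where they are high. A gene that does so could only be found higher. Lower were Cd74, which encodes the MHC II invariant chain (-2.50 ± 0.37), the stem cell genes Meis1 (-2.20 ± 0.27) and Angpt1 (-2.17 ± 0.27), and Cpa3 (-1.83 ± 0.28), again on 4 of 4 plates (edgeR adjusted p = 5.07e-07, 2.7e-09, 5.88e-09 and 1.2e-06). Of granulocyte genes 14 of 15 tested were higher and 0 lower, and of monocyte genes 2 were higher and 2 lower of 13 tested. Ccr2, the chemokine receptor of monocytes, was among the lower (-0.84 ± 0.26, edgeR adjusted p = 0.0307), on 3 of 4 plates, a call lost without LC188, LC189 or LC190. The depth of the 2 bands differed, as given above, and its part in these differences was not tested. With 1 plate left out the count of genes was 356 to 587, lowest without LC187 and next lowest without LC189.

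The largest differences of the wells of 20 or more against the other LC wells were in genes with few counts in the other wells. Such a gene passes the count filter only through the wells where it is high, so the low level elsewhere is no finding. Sgms2 was 54, 61.2, 79.5 and 38 CPM on LC187 to LC190 against 5.97, 2.59, 2.74 and 1.95 CPM (4.17 ± 0.41, edgeR adjusted p = 5.22e-09). Wfdc21, a small whey acidic protein gene, was 27, 49.7, 71.6 and 44.9 against 2.63, 0.707, 2.25 and 4.33 CPM (4.28 ± 0.48, edgeR adjusted p = 6.11e-08). Cldn15, a claudin gene, was 52.2, 30.6, 58.3 and 51.8 against 7.4, 3.06, 4.49 and 4.12 CPM (3.38 ± 0.39, edgeR adjusted p = 1.14e-07). None of the 3 overlapped between the groups. Ncam1, the cell adhesion molecule CD56, was 18, 38.2, 39.8 and 25.9 against 2.86, 0.707, 1.5 and 3.03 CPM (3.87 ± 0.54, edgeR adjusted p = 3.33e-06). Hsd11b1, the enzyme that regenerates active glucocorticoid, had 38 counts against 18 (4.35 ± 0.60), Mgam, a maltase, 56 against 47 (3.55 ± 0.48), Papss2, which makes the sulfate donor, 31 against 22 (3.75 ± 0.60), and Celsr3, a large cadherin, 18 against 7 (4.46 ± 0.80). Each of these 4 was higher on 4 of 4 plates, on few counts.

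On the LCE plates the 13 Elane-rich wells showed the same markers against a lower background. Mpo was 1566, 3217 and 2695 CPM on LCE407, LCE408 and LCE410 against 161, 164 and 221 CPM (3.46 ± 0.20, edgeR adjusted p = 1.52e-62). Ms4a3 was 224, 331 and 269 against 2.6, 5.33 and 1.92 CPM (6.07 ± 0.57, edgeR adjusted p = 2.48e-23). Fcgr3 was 124, 47.3 and 96.2 against 1.73, 3.39 and 0.481 CPM (5.25 ± 0.87, edgeR adjusted p = 1.27e-06), a call lost without LCE407 or LCE410. Flt3 was 0, 118 and 38.5 against 233, 259 and 247 CPM (-2.53 ± 0.45, edgeR adjusted p = 1.09e-05). Mpo, Ms4a3 and Fcgr3 were higher and Flt3 was lower on 3 of 3 plates, from 3, 5 and 5 wells. The LCE test called 58 of 9786 genes (0.593%), 29 higher (0.296%) and 29 lower (0.296%). The LC set fitted alone, with 372 wells, gave 796 of 12461 (6.39%), 510 higher (4.09%) and 286 lower (2.3%). The median log2 difference of all genes tested was -0.37 over LCE plates and -0.02 over LC plates.

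The difference between the sets was tested with an interaction term over 11679 genes, of which 62 passed (0.531%), 10 with a larger value in LCE and 52 with a smaller one. Among the named genes the LCE difference was larger for Ms4a3 (LCE minus LC 3.28 ± 0.43), Hdc (3.19 ± 0.83), F13a1 (2.86 ± 0.73), Ly6c2 (2.64 ± 0.41), Ctsg (1.78 ± 0.18), Mpo (1.66 ± 0.13), Prtn3 (0.70 ± 0.14), Calr (0.69 ± 0.15) and the chemokine receptor gene Ccr2 (2.62 ± 0.61). It was further below 0 for Flt3 (-1.77 ± 0.48) and for Txnip of the stem cell list (-1.32 ± 0.36). Adjusted p of edgeR ranged from 7.29e-32 to 0.0453 over these 11 genes. Beside this, Mpo in the other wells was 1035, 780, 720 and 762 CPM on the LC plates and 161, 164 and 221 CPM on the LCE plates, and Elane in the other wells was 358, 198, 194 and 215 and 14.7, 53.3 and 28.8 CPM. The part of this background in the interaction was not tested.

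The sorter's record of each cell gave its surface proteins before lysis. Intensities were ranked among the kept wells of a plate and given as percentiles, and a difference is the mean percentile of Elane-rich wells minus that of the others, in percentile points, with the SD over plates. 383 of the 385 wells had a record. CD135 was lower on 7 of 7 plates, by 16.8 points on average (SD 4.52, exact sign-flip p = 0.0156, two-sided and the smallest that 7 plates can give, 0.135 adjusted over 13 channels). Its median intensity was 1088, 381, 393 and 1238 in Elane-rich wells of LC187 to LC190 against 1588, 1223, 1362 and 3973 in the others. In the wells of 20 or more the CD135 difference was -35 ± 2.42 points on 6 of 6 plates (exact sign-flip p = 0.0312, the smallest that 6 plates can give, adjusted 0.102), with medians of 243, 208, 317 and 694 on the LC plates against 1455, 1085, 1140 and 3834. LCE408 and LCE410 enter this test with only 2 wells and 1 well. On the 4 LC plates alone the difference was -34.5 ± 2.33 points (exact sign-flip p = 0.125, the smallest that 4 plates can give, adjusted 0.25). The LC plates differ in CD135 scale among themselves, and on each of them the Elane-rich cells lie low. Of 76 LC wells of 20 or more, 74 (97.4%) lay in the lowest CD135 tercile of their plate, 2 in the middle one and 0 in the highest, which allows a share of up to 3.95%. Among all 370 Elane-rich LC wells with a record, the terciles held 175, 112 and 83.

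For cKit and Sca1, the proteins of the gate, the mean differences lay below 0, and for CD11b, an integrin of mature myeloid cells, above 0. At 20 or more the differences were -19 ± 10.6 points for cKit, -16.3 ± 9.41 for Sca1 and 16.4 ± 14.9 for CD11b, all with 1 sign over the 6 plates (exact sign-flip p = 0.0312 for each, adjusted 0.102). On the 4 LC plates alone cKit was at -18.7 ± 6.63 and Sca1 at -11.7 ± 2.09 points, both lower on 4 of 4 plates. The exact sign-flip p was 0.125 for cKit, Sca1 and CD11b there (adjusted 0.25). By the rule they were -8.68 ± 6.41, -9.6 ± 6.6 and 5 ± 8.97 points on 6, 6 and 5 of 7 plates. The CD11b value leans on few LCE wells: on the LC plates alone it was 7.62 ± 7.59 points at 20 or more and 1 ± 1.46 by the rule, while the 3 LCE wells of 20 or more stood 31.3 points above the others on LCE408 and 36.4 on LCE410. CD16/32, the Fc gamma receptors, was recorded for the LCE plates only: its median was 2372, 753 and 1055 in Elane-rich wells of LCE407, LCE408 and LCE410 against 592, 575 and 570 in the others, higher on 3 of 3 plates (25.1 ± 11.6 points, exact p = 0.25, the smallest that 3 plates can give). The 3 LCE wells of 20 or more stood at medians of 2846 on LCE408 and 2592 on LCE410. In forward scatter, which follows cell size, they stood 48.8 ± 1.01 points higher than the other wells of these 2 plates, and in side scatter 48.3 ± 2.19 points. For GFP, the Dach1 reporter, the difference was 1.44 ± 5.98 points by the rule and 6.12 ± 12.9 at 20 or more, up on 3 plates and down on 3. CD150, carried by stem cells, was at -6.02 ± 2.1 points on the LC plates, lower on 4 of 4, and at 10.9 ± 21.6 points on the LCE plates. The signal of the dead-cell dye PI was 17.2 ± 12 points higher at 20 or more, on 5 of 6 plates (exact sign-flip p = 0.0625, adjusted 0.163), and its part in the other differences was not tested. No protein difference passed 0.05 after adjustment.

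**Figure D4:**
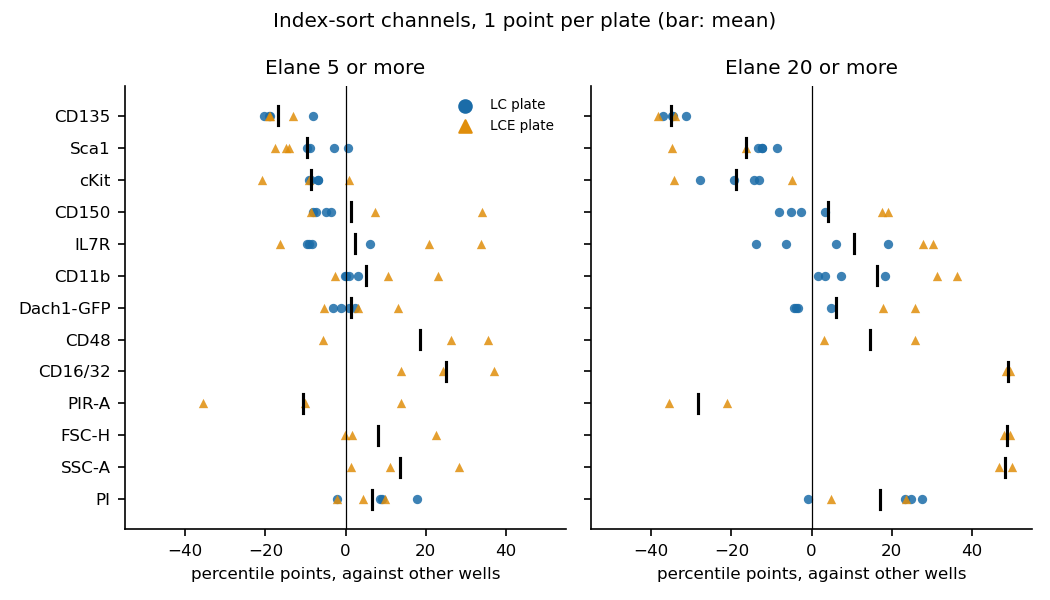
Percentile of each sorted protein or scatter signal in Elane-rich wells minus that of the other kept wells of the plate (horizontal axis, percentile points), 1 point a plate (LC circles, LCE triangles) and a bar at the mean, for 5 or more Elane (left) and 20 or more (right). CD135 lies left of 0 on every plate in both panels, and CD16/32 lies right of 0 on every LCE plate shown.

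Since the Elane-rich cells lay low in CD135, those under the plate median of both CD135 and CD150 were also compared with the other LC wells in that gate (46, 15, 23 and 28 Elane-rich wells on LC187 to LC190, with 23, 48, 40 and 32 others). Within this gate 391 of 7050 genes passed (5.55%) and 8 of 17 azurophil granule genes tested were higher, with 0 lower. Mpo was 2828, 2870, 2982 and 3438 CPM against 1022, 988, 750 and 961 CPM (1.69 ± 0.07, edgeR adjusted p = 1.51e-25). Ms4a3 differed by 2.53 ± 0.18 and Fcgr3 by 2.67 ± 0.39 (edgeR adjusted p = 1.35e-16 and 1.92e-06). Irf8 was 155, 236, 98.2 and 87.1 against 38.7, 21, 23.7 and 44.8 CPM (2.09 ± 0.28, edgeR adjusted p = 2.15e-07), higher on 4 of 4 plates and without overlap between the groups. Car1 was 11, 25.4, 14.7 and 12.9 against 106, 64.8, 15.1 and 239 CPM (-2.73 ± 0.39, edgeR adjusted p = 1.42e-06). Dach1 was 34.3, 39.9, 22.1 and 17.7 against 80.6, 85.8, 60.3 and 36.2 CPM, lower on 4 of 4 plates (-1.21 ± 0.32, edgeR adjusted p = 0.0118). 8 of 14 stem cell genes and 4 of 14 lymphoid priming genes were lower there, and 19 of 30 secretory genes higher.

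Elane-rich cells also differed among themselves by their surface CD135. The Elane-rich wells of each LC plate were split at their own median of CD135, and in those with more CD135, 46 genes were higher (0.618%) and 70 lower (0.94%) of 7448 tested (1.56% in all). Lymphoid genes rose with CD135: Dntt was 198, 70.6, 140 and 68.5 CPM on LC187 to LC190 in CD135-high and 59.4, 68.8, 40.3 and 21.8 CPM in CD135-low wells (1.42 ± 0.23, edgeR adjusted p = 0.000316). Flt3 was 164, 94.2, 109 and 83.2 against 68, 74.4, 35.8 and 33.5 CPM (1.16 ± 0.21, edgeR adjusted p = 0.0012). Both calls were lost without LC187 (edgeR adjusted p = 0.0872 and 0.0837). Granulocyte genes fell with CD135: Ms4a3 was 57.1, 157, 272 and 212 against 275, 449, 410 and 486 CPM (-1.37 ± 0.15, edgeR adjusted p = 7.52e-07) and S100a8 differed by -2.99 ± 0.31 (edgeR adjusted p = 1.94e-07). The S100a8 value leans on few wells, since 1 well held 79 of the 135 S100a8 counts of LC189. 8 of 14 granulocyte genes, 7 of 18 azurophil granule genes and 7 of 30 secretory genes were lower, and 6 of 15 lymphoid priming genes higher. Elane itself was 766, 1232, 2373 and 1424 CPM in CD135-high and 1944, 3420, 2641 and 3602 CPM in CD135-low wells, so the split also divides the wells by Elane. Without the plate as a block no gene passed (467 at an unadjusted p under 0.05). Among wells of 20 or more alone, 15 of 4192 genes passed (0.358%), with Irf8 (1.31 ± 0.29) and Ccr2 (2.56 ± 0.59) higher and S100a8 (-1.93 ± 0.33), Pglyrp1, which encodes a peptidoglycan-binding granule protein (-1.83 ± 0.41), and Ms4a3 (-0.55 ± 0.13) lower in CD135-high wells (edgeR adjusted p = 0.0107, 0.0127, 0.000176, 0.0107 and 0.0173). There S100a8 was 27.9, 45, 38.9 and 78 CPM on LC187 to LC190 in CD135-high and 37.2, 141, 560 and 173 CPM in CD135-low wells, with overlap between the groups.

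A split by Dach1-GFP separated monocyte from mast cell genes within the Elane-rich cells. The wells of each LC plate were divided at their own median of GFP, and log2 differences are GFP-low minus GFP-high. The test called 39 of 7473 genes (0.522%), 21 higher (0.281%) and 18 lower (0.241%). Dach1 itself, the gene of the reporter, was 20.6, 10.1, 22 and 12.2 CPM on LC187 to LC190 in GFP-low and 53.7, 43.1, 16.5 and 31 CPM in GFP-high wells (-1.15 ± 0.37, edgeR adjusted p = 0.27). Irf8 was 167, 385, 215 and 159 CPM in GFP-low and 61.5, 43.1, 18.9 and 40.2 CPM in GFP-high wells (2.22 ± 0.22, edgeR adjusted p = 4.95e-07). Ly86, which encodes the partner of the receptor RP105, was 60.2, 111, 105 and 79.5 against 20.5, 8.62, 9.45 and 10.8 CPM (2.53 ± 0.32, edgeR adjusted p = 2.7e-05). F13a1 was 107, 252, 132 and 135 against 38.2, 37.4, 21.3 and 3.1 CPM (2.48 ± 0.28, edgeR adjusted p = 5.95e-06). All 3 were higher in GFP-low wells on 4 of 4 plates, and 9 of 12 monocyte genes tested were higher, with Ly6c2 at 2.08 ± 0.21 and Ly6c1 at 2.75 ± 0.43. Lower were 3 of 4 mast cell and basophil genes: Slc18a2, a vesicular monoamine transporter (-2.61 ± 0.51), Cpa3 (-2.0 ± 0.32) and Hdc (-1.38 ± 0.25, edgeR adjusted p = 0.00761, 0.000799 and 0.00309), and the Slc18a2 call was lost without LC189. Hdc is also on the granulocyte list. Of azurophil granule genes 1 of 17 was lower, Cd63 (-1.07 ± 0.16, edgeR adjusted p = 0.000548), and none higher, with Mpo at 0.18 ± 0.05 and Prtn3 at 0.20 ± 0.06 (edgeR adjusted p = 0.25 and 0.156).

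Among the 76 LC wells of 20 or more, the test called 10 of 4202 genes (0.238%). In GFP-low wells 7 were higher (0.167%) and 3 lower (0.0714%). Irf8 was 233, 392, 178 and 180 CPM in GFP-low and 87.4, 7.91, 4.92 and 33.1 CPM in GFP-high wells of LC187 to LC190 (2.66 ± 0.38, edgeR adjusted p = 0.00061). Ly86 was 58.2, 192, 69 and 64.9 against 19, 0, 4.92 and 3.31 CPM (3.32 ± 0.60, edgeR adjusted p = 0.00737). Cd63 was 113, 81.4, 178 and 123 against 239, 435, 379 and 318 CPM, lower in GFP-low wells (-1.39 ± 0.21, edgeR adjusted p = 0.00146). The other lower calls were Ampd2 (-1.43 ± 0.31) and Slco3a1 (-1.22 ± 0.25, edgeR adjusted p = 0.0484 and 0.027), and no mast cell or basophil gene passed: Hdc differed by -1.12 ± 0.33 (edgeR adjusted p = 0.349) and was the 1 gene of that list with enough counts to be tested. Irf8, Ly86 and Cd63 had 1 sign on all 4 plates, while the levels of Irf8 vary several-fold between plates. Elane was 3532, 3735, 4800 and 5149 CPM in GFP-low and 4040, 5690, 4185 and 4062 CPM in GFP-high wells. These are the same wells as above, so they are no second set of evidence. For the rule's wells, 14 genes passed without the plate as a block, and 25 to 62 with 1 plate left out.

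**Figure D5:**
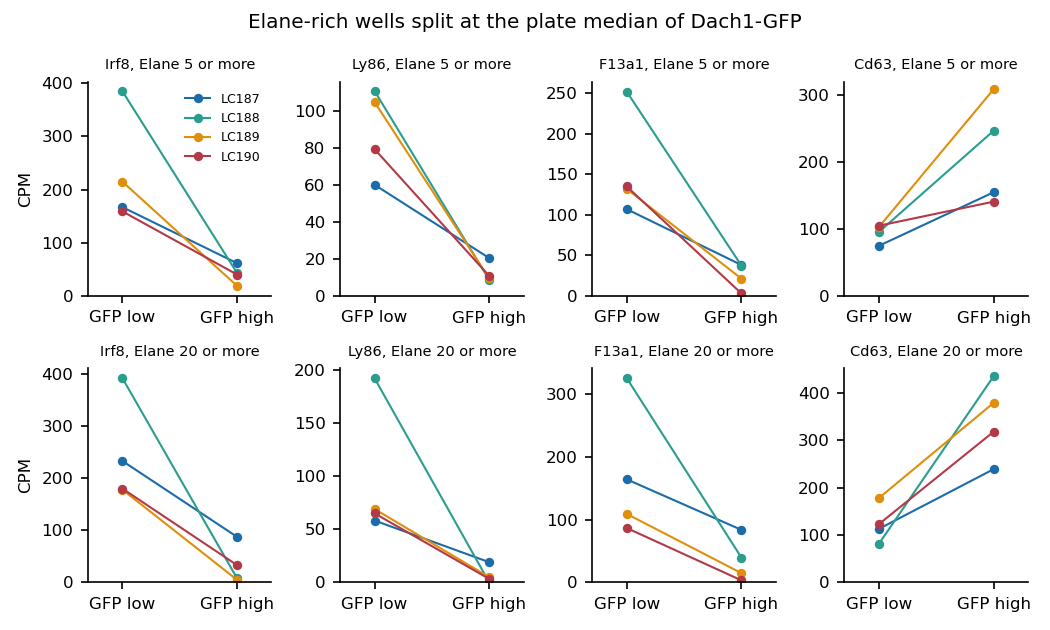
CPM of Irf8, Ly86, F13a1 and Cd63 (vertical axes) in Elane-rich wells of the LC plates below and above their plate's median of Dach1-GFP (horizontal axis), 1 line a plate, for 5 or more Elane (top) and 20 or more (bottom). Irf8, Ly86 and F13a1 are higher in GFP-low wells on each of the 4 plates, and Cd63 is lower.

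At the level of single wells, a high Elane share went with high Mpo and Ms4a3, and none of the wells of 20 or more reached the level set for Dntt. On the LC plates, Mpo at 20 or more per 10000 was found in 75 of 76 wells of 20 or more Elane, 68 of 296 wells of 5 to 20, and 31 of 993 other wells. Ms4a3 at 5 or more per 10000 was found in 38 of 76, 11 of 296 and 5 of 993. Dntt at that level was found in 0 of 76, 25 of 296 and 92 of 993, and Irf8 in 6 of 76, 12 of 296 and 29 of 993. The 0 of 76 for Dntt allows a share of up to 3.95% on counting error alone. The wells differ in depth as given above, and these shares were not thinned to 1 depth. On the LCE plates all 3 wells of 20 or more carried Ms4a3 at 5 or more per 10000, as against 0 of 1349 other wells. The 10 genes most like Elane over kept wells, by mean within-plate Spearman correlation over 7 plates among 9064 genes detected in at least 10% of kept wells, were Mpo (0.247), Ctsg (0.232), Prtn3 (0.227), Ms4a3 (0.222), Calr, Hspa5, Hp, Anxa3, Plac8 and Ly6c2 (0.158). They are descriptions over wells that share a plate and its depth. For Mpo the mean was 0.332 over LC plates and 0.134 over LCE plates, where Elane was seldom detected. Elane's neighbours in RefSeq order on chromosome 10 are Plppr3 and Prtn3 on one side and Cfd and Med16 on the other. Plppr3 was 173, 199, 90.1 and 140 CPM in LC wells of 20 or more against 161, 117, 96.8 and 111 CPM and was not called (0.31 ± 0.14, edgeR adjusted p = 0.141), Med16 was not called (0.10 ± 0.27, edgeR adjusted p = 0.855), and Cfd, which encodes adipsin, had 0 counts in the wells of 20 or more and 3 in all others.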

How the data were processed

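Single LSK cells on 8 plates were profiled by CEL-seq2. The deposited values are whole-number counts per gene and well, as the authors gave them. Aligner, counting, use of strand and handling of molecular identifiers were not given in the sources used here. Intervals therefore cover counting error only. GRCh38 is the build in the submitters' processing notes, while the files hold mouse gene identifiers, so no position was taken from them, and 27249 of 27318 identifiers matched a symbol. Index-sort values are deposited linear fluorescence intensities, per the file headers, joined by well, or by barcode for LCE plates.

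Counts of Elane-rich and other kept wells were summed per plate and tested with edgeR 4.0.16 in R 4.3.3 (filterByExpr, TMM, quasi-likelihood, plate as a block, Benjamini-Hochberg threshold 0.05), with Elane left out of the test. DESeq2 1.42.0 was an alternative. Proteins were compared with scipy 1.17.1 in Python 3.11.15. Both sums of a plate come from that plate, which pairs them, and their deviations correlated at 0.163 to 0.331 on LC and 0.047 to 0.076 on LCE plates. Tested on simulated data for the rule's comparison over 11680 genes, 97 of 100 genes changed by 1 on the log2 scale were recovered, 100 of 100 changed by 2, and 3 false calls were made. For genes changed by 1, recovery was 75 of 100 at 20 or more Elane and 71 of 100 for the CD135 split, where 89 of 100 changed by 2 were recovered. False calls were 6 and 7 there and 10 for LC alone. The simulation gave all genes the same dispersion and changed only genes above a minimum level, so it does not cover genes with few counts.

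Total counts of kept wells were 2106403 to 5196601 per plate. The markers, lists and cells were chosen with earlier results of these data known. Named genes are Elane, Mpo, Ms4a3, Cebpe, Prtn3, Dach1 and genes of sorted proteins, up to 12 higher and 12 lower genes with the same sign on each plate (6 and 6 in other comparisons), up to 4 called genes per list, genes of the granule, granulocyte, transcription factor and receptor lists, and the 10 genes most like Elane. Neighbours of Elane and genes named with 0 or few counts were added after their values were seen. Near-identical genes may share counts. The LC comparison at 20 or more Elane, the bands and the CD135-low CD150-low comparison were added after seeing the data. Doublets were not called. A planned comparison of CD135-low, CD48-high, CD150-low wells on the LCE plates was not run, since no plate had the minimum of 5 Elane-rich wells in it.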

Additional observations from a re-analysis of the deposited data

Results flagged for a closer look

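Among the 4 LC plates, LC187 stood far from the others in several values. It held 59.9% Elane-rich wells, and its median over all kept wells was 5.71 Elane counts per 10000. In its other wells Prtn3 was 952 CPM, and in its Elane-rich wells Ctsg was 803 CPM, the highest and lowest of the 4 plates. The CD135 difference of its Elane-rich wells was -8.14 percentile points, the smallest of the LC plates. LC190 stood apart in the IL7R protein difference, at 6.11 percentile points against values below 0 on the other LC plates. Chance singles out about 1 in 20 groups of values by this criterion (Dixon's critical value).

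The difference between Elane-rich and other wells was not the same in both plate sets for 11 named genes, tested with an interaction term of edgeR. As LCE minus LC on the log2 scale the values were 3.28 for Ms4a3, 3.19 for Hdc, 2.86 for F13a1, 2.64 for Ly6c2, 2.62 for Ccr2, 1.78 for Ctsg, 1.66 for Mpo, 0.698 for Prtn3, 0.693 for Calr, -1.77 for Flt3 and -1.32 for Txnip. Mpo in the other wells was 720 to 1035 CPM on LC plates and 161 to 221 CPM on LCE plates, and its part in this was not tested.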

How the results depend on the processing

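Of 88 named genes called by the rule, 88 kept direction and call under DESeq2 size factors and 66 under DESeq2, where 22 lost the call. With wells thinned to 3000 counts, 18 of the 54 that could be tested kept it and 36 lost it. The 878 genes called became 557 with DESeq2, 403 with no replicate block, 52 with wells thinned to 3000 counts, 1559 at 10 or more Elane, 1473 at 20 or more, 77 between 5 and 20, 1777 at 5 or more over the plate median, and 360 to 1032 with 1 plate left out (360 without LC190, 1032 without LC187). For LC alone (796) they were 1829 at 20 or more, 391 among CD135-low CD150-low wells and 313 to 1204 with 1 plate left out. For LCE alone (58) they were 15 to 59. The CD135 split (116) gave 0 with no replicate block, 15 at 20 or more and 63 to 107 with 1 plate left out. The GFP split (39) gave 14, 10 and 25 to 62. LC wells of 20 or more (1829) gave 1197 with DESeq2 and 1119 to 1465 with 1 plate left out, and against 5 to 20 (659) 356 to 587. The block changed the call of 34 of the 88 named genes. Cpa3 turned to -1.05 at 20 or more and S100a8 to -1.0 between 5 and 20. With 1 plate left out, the difference in percentile points was -0.522 to 2.56 for GFP, -4.24 to 2.89 for CD150, -2.78 to 5.6 for IL7R and -22.9 to 1.85 for PIR-A, and on asinh medians CD150 was at -0.0149. The causes were not tested. The LCE values rest on 13 wells.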

Other observations

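Of the genes called lower in the 76 LC wells of 20 or more Elane, 4 had 0 counts there, and they were picked out after their values were seen. Iigp1, an interferon-inducible GTPase gene, had 195 counts in the other LC wells and was at least 6.76-fold lower, computed against a floor of 3 counts over the group (1.69 CPM). Rara, the retinoic acid receptor alpha gene, had 166 counts and was at least 5.75-fold lower. Rab3il1 had 118 counts and Camsap2 110, and they were at least 4.09-fold and 3.81-fold lower on the same floor. The floor covers counting error over the pooled wells only, not the spread between wells or plates. Since the genes were picked at 0 counts, these folds are no firm lower bounds.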
